A study of Mus musculus with 12 samples.

Results

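The adhesion genes described here are 7 cell surface proteins of the immunoglobulin superfamily, Icam1, Icam2, Vcam1, Alcam, Icam5, Ncam1 and L1cam. They were chosen by symbol, with earlier results of these data known. The first 4 were taken as molecules that leukocytes bind, the other 3 as neuronal adhesion molecules set against them. All 7 had a row among the 43629 genes of the deposited count table, and 6 held enough counts to be tested among 15241 genes, Icam2 being left out for low counts. RNA was sequenced from mouse cortical neuronal cultures, 6 IFNG libraries and 6 Control libraries. The IFNG cultures were under lasting exposure to interferon-gamma from a lentivirus carrying Ifng, given at day 7 in vitro, with harvest 10 days later. All 12 libraries carry the same treatment text, so which construct the Control cultures received is not given in the sources used here, nor are the promoter of the lentivirus, the strain and age of the mice, or whether replicate libraries stem from different cultures or animals. The p-values therefore measure no more than how these libraries differ among themselves, and that spread may be technical.

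Leukocytes leave the blood by holding on to immunoglobulin-type molecules through integrins. ICAM1 and ICAM2 are bound by the leukocyte integrin LFA-1, VCAM1 by the integrin of alpha 4 and beta 1 chains, and ALCAM by CD6 on T cells and by itself. ICAM1 and VCAM1 are known for being raised by inflammatory signals on vessel walls, while ICAM2 is a constitutive molecule of endothelium. ICAM5, also called telencephalin, sits on the dendrites of forebrain neurons and is bound by LFA-1 too, NCAM1 joins neurons to each other and carries polysialic acid, and L1CAM acts in axon growth.

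Libraries held 13875435 to 34239380 counts, and levels are given as CPM, the counts per 1000000 counts of a library, on totals scaled by the TMM method. Ifng was read at 4.98 to 17.8 CPM in IFNG libraries and at 0 to 0.169 CPM in Control libraries, so all 12 labels matched the transgene. Of 15241 genes tested, 3676 were called at an adjusted p below 0.05, which is 24.1%, with 2184 higher (14.3%) and 1492 lower (9.79%), or 59.4% higher among the calls. Scaled by totals from which every risen gene was removed, the calls were 2954 higher and 750 lower, or 79.8% higher, and on library totals with no composition factor 1961 higher and 1859 lower. The first of these scalings put the log2 fold change of the median gene at 0.095, against -0.016 with TMM. Of 14 neuron markers all were tested, none rose and 7 fell, and they summed to 4484 to 5827 CPM in IFNG cultures and to 6099 to 6873 CPM in Control cultures. All 10 tested astrocyte markers of 12 listed rose, their median log2 fold change being 1.23, and the 12 summed to 4310 to 7389 CPM in IFNG against 2355 to 2592 CPM in Control libraries. In bulk RNA, more cells of a type and more RNA per cell cannot be told apart.

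Icam1 and Icam5 are neighbours that are both read from the plus strand of chromosome 9, with 3255 bases between the end of Icam1 and the start of Icam5. The 250 bases before their RefSeq start sites (build GRCm38.p6) are shown because Icam1 rose far more than any other adhesion gene tested while the adjoining Icam5 was not called, and capitals mark matches to the interferon-gamma activated site motif TTCNNNGAA and the NF-kB motif GGAAATTCC. The windows are chr9:21015690-21015939 for Icam1 and chr9:21031788-21032037 for Icam5, both on the plus strand, and the GENCODE start lies 45 bases further on for Icam1 and 35 bases further on for Icam5.
Icam1: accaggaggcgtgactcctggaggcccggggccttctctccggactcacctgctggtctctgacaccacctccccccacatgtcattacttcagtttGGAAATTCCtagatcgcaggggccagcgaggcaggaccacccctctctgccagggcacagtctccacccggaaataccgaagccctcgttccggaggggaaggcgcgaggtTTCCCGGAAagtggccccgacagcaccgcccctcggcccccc
Icam5: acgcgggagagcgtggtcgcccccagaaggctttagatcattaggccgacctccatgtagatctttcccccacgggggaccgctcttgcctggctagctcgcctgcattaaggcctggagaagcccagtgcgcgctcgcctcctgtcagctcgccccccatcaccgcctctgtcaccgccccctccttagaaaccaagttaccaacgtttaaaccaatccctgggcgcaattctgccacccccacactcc
The Icam1 window held TTCCCGGAA at -42 to -34 and GGAAATTCC at -153 to -145, counted back from the base before the RefSeq start as -1. On either strand, TTCNNNGAA was found in 7.02% and GGAAATTCC in 0.286% of 32851 RefSeq promoter windows of the same length. GGAAATTCC is a fixed string, so its share is not that of NF-kB motifs in general, and neither match was tested. Vcam1, which also rose, had no window to compare. Neither motif was found in the windows of Alcam, which rose too, or of L1cam, which did not pass. The Icam5 window held neither, and no window of Icam1, Icam5, Alcam or L1cam, the 4 adhesion genes in the promoter table, held the interferon-stimulated motif GAAANNGAAA (2.98% of windows) or the NF-kB consensus (7.25% of windows). GGGCGG, the GC box, was found on one or the other strand in the windows of Icam1, Icam5, Alcam and L1cam, as in 32.7% of all windows. A match is a stretch of letters and not a measured binding site.

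Among the 6 adhesion genes tested, Icam1, Vcam1 and Alcam rose, and Icam5, Ncam1 and L1cam did not pass, a count of 3 of 6 beside the 24.1% called among all genes. Icam1 and Vcam1, 2 of the 6, passed with a log2 fold change of at least 1, as did 6.69% of all tested genes, and the same pair passed with at least 3, as did 1.89%. The IFNG and Control libraries stood apart for Icam1 and Vcam1 and overlapped for the other 4 tested genes, where 12.8% of all tested genes had groups that did not overlap. Log2 fold changes are given as IFNG over Control, ± the standard error (SE). Adjusted p-values are those of the quasi-likelihood test in edgeR, corrected over all tested genes by the Benjamini-Hochberg method.

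**Figure D1:**
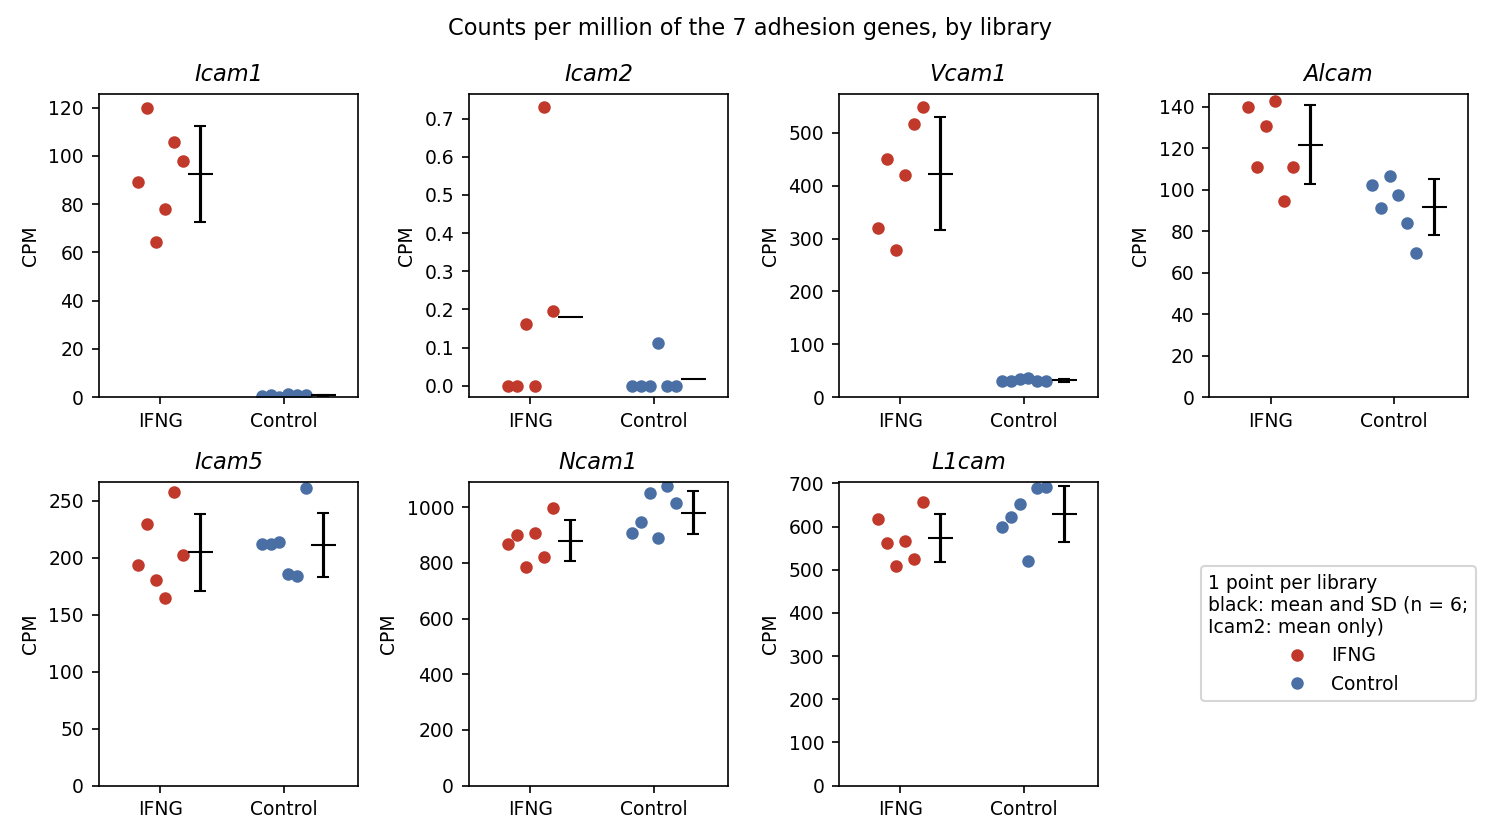
Level of each adhesion gene in CPM (linear axis) in the 6 IFNG and the 6 Control libraries, with 1 point per library and the mean and SD in black (Icam2 with its mean only). Icam1 and Vcam1 lie far higher in all IFNG libraries, Alcam overlaps in part, Icam5, Ncam1 and L1cam overlap widely, and Icam2 is near 0 in all.

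Icam1 (ENSMUSG00000037405, GRCm38 chromosome 9, 21015985 to 21028817, plus strand) is the main inducible ligand of LFA-1. Its lowest, median and highest values were 64.5, 93.6 and 119.9 CPM in IFNG libraries, against 0.204, 0.814 and 1.13 CPM in Control libraries. Every IFNG library was thus far above every Control library, and Control libraries held between 3 and 20 Icam1 counts each. Icam1 averaged 92.6 ± 19.9 CPM in IFNG cultures, against 0.728 ± 0.371 CPM in Control cultures (SD, n = 6 each). The log2 fold change came to 6.96 ± 0.24 (SE; adjusted p = 9.53e-15, edgeR), a 124-fold rise with a 95% interval of 87.9 to 176. Only 0.695% of tested genes had a larger log2 fold change. Microglial, endothelial and lymphocyte markers, of cell types that can carry Icam1, were low. The 13 microglial markers summed to 24.9 to 41.0 CPM in IFNG cultures and to 15.9 to 27.5 CPM in Control cultures, and both that were tested, Sall1 and P2ry12, rose. Sall1 made up most of that sum, and the other 12 each stayed at or below 1.91 CPM in all libraries. Endothelial markers summed to 2.38 to 6.82 CPM in IFNG cultures and to 1.98 to 4.74 CPM in Control cultures, with Cldn5 at 0 counts in all 12 and Ly6c1, which rose, at 310 counts in IFNG and 1 in Control. Lymphocyte markers summed to 4.35 to 9.02 CPM in IFNG cultures and to 4.26 to 9.42 CPM in Control cultures, with Cd3d and Nkg7 at 0 counts in all 12. Fibroblast and mural markers summed to 52.3 to 59.3 CPM in IFNG cultures and to 30.4 to 49.3 CPM in Control cultures. Of the 6 tested, Pdgfrb and Igf2 rose and 4 did not pass. The part of these markers in the Icam1 result was not tested.

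Vcam1 (ENSMUSG00000027962, chromosome 3, 116109949 to 116129688, minus strand) is the ligand of the alpha 4 integrins. It was read at 277.7, 435.4 and 548 CPM (lowest, median and highest) in IFNG libraries and at 29.7, 30.4 and 36.9 CPM in Control libraries. The groups did not overlap, and unlike Icam1 it was well above 0 in Control, with 491 to 654 counts per library. The means were 422 ± 107 CPM in IFNG cultures, against 31.8 ± 2.86 CPM in Control cultures (SD, n = 6 each). The log2 fold change came to 3.73 ± 0.15 (SE; adjusted p = 1.16e-13, edgeR), a 13.3-fold rise with a 95% interval of 10.7 to 16.6. The libraries spread more widely in IFNG, with a coefficient of variation of 25.3% in IFNG and 9.01% in Control libraries.

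Alcam (ENSMUSG00000022636, chromosome 16, 52248996 to 52454074, minus strand), the ligand of CD6, had the smallest of the called changes. Its values were 94.8, 120.9 and 142.7 CPM in IFNG libraries and 69.4, 94.3 and 106.5 CPM in Control libraries. The groups overlapped, with 3 of 6 Control libraries above the lowest IFNG library. The means were 121.7 ± 19.0 CPM in IFNG cultures, against 91.8 ± 13.5 CPM in Control cultures (SD, n = 6 each). The log2 fold change was 0.41 ± 0.12 (SE; adjusted p = 0.0146, edgeR), 1.33-fold with a 95% interval of 1.12 to 1.57. Tested against a fold change of 1.2, Alcam no longer passed (adjusted p = 0.195).

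Icam2 (ENSMUSG00000001029, chromosome 11, 106377656 to 106388075, minus strand) was barely read in these cultures. It held 24 counts over the IFNG libraries and 2 over the Control libraries, and 17 of the 24 were in IFNG 5. IFNG 1, IFNG 2 and IFNG 4 were at 0 counts, as were all Control libraries except Control 4, and a count of 0 allows up to 3. The ratio of counts per scaled total was 10.4, with an exact 95% interval of 2.59 to 91.2 that covers counting error only. Without IFNG 5 the ratio was 3.75, with an interval of 0.714 to 37.0. Fitted with no filter on low counts, its log2 fold change was 2.93 ± 1.48 (SE; adjusted p = 0.199, edgeR).

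Icam5 (ENSMUSG00000032174, chromosome 9, 21032073 to 21039036, plus strand), the LFA-1 ligand of forebrain dendrites, was at like levels in both groups. It was read at 164.5, 198.0 and 257.6 CPM in IFNG libraries and at 183.5, 212.0 and 261.5 CPM in Control libraries. The ranges cover each other almost wholly. The means were 204.7 ± 33.9 CPM in IFNG cultures, against 211 ± 28.2 CPM in Control cultures (SD, n = 6 each), with a log2 fold change of -0.05 ± 0.11 (SE; adjusted p = 0.818, edgeR). Its 95% interval, 0.824-fold to 1.14-fold, bounds the change that these libraries leave possible. The sign turned on totals free of risen genes, at 0.066, and without IFNG 4 or Control 6, at 0.01 and 0.039.

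Ncam1 (ENSMUSG00000039542, chromosome 9, 49502136 to 49798925, minus strand) was the most abundant of the adhesion genes. Its values were 786, 884 and 999 CPM in IFNG libraries and 888, 981 and 1076 CPM in Control libraries, so the groups overlapped. The log2 fold change was -0.16 ± 0.084 (SE; adjusted p = 0.199, edgeR), with a 95% interval of 0.795-fold to 1.01-fold. L1cam (ENSMUSG00000031391, chromosome X, 73853778 to 73896105, minus strand) was read at 508, 565 and 656 CPM in IFNG libraries and at 519, 637 and 691 CPM in Control libraries. Its groups overlapped too, and its log2 fold change was -0.14 ± 0.092 (SE; adjusted p = 0.313, edgeR), with an interval of 0.797-fold to 1.04-fold. On totals free of risen genes these values were -0.04 for Ncam1 and -0.03 for L1cam.

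The order of levels was compared per length, as mean CPM per kilobase of annotated exon. In IFNG libraries Ncam1 led at 101.6 ± 8.63, followed by L1cam at 77.9 ± 7.58, Icam5 at 69.5 ± 11.5, Vcam1 at 47.6 ± 12.1, Icam1 at 21.2 ± 4.55 and Alcam at 17.1 ± 2.67 (SD, n = 6). In Control libraries the order was Ncam1 at 113 ± 8.92, L1cam at 85.6 ± 8.86, Icam5 at 71.7 ± 9.57, Alcam at 12.9 ± 1.90, Vcam1 at 3.58 ± 0.323 and Icam1 at 0.167 ± 0.0852 (SD, n = 6). Icam2 was last in both groups. The 3 neuronal genes thus kept the top places, while Vcam1 and Icam1 were below Alcam in Control and above it on average in IFNG libraries. Neighbours whose ranges over libraries overlapped were L1cam with Icam5, Icam5 with Vcam1 and Icam1 with Alcam in IFNG, and L1cam with Icam5 and Icam1 with Icam2 in Control libraries. Within each library, Icam5 stayed above Vcam1 in all 6 IFNG libraries, and Icam1 was above Alcam in 4 of 6.

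Some reads may belong to other genes, since the strand setting of the counting is not given in the sources used here. In GENCODE M21, exons of Icam1 share 511 bases, and those of Icam5 116 bases, with the opposite-strand gene Gm47079, which was not analysed here. Icam5 exons also share 791 bases with the opposite-strand gene Gm26592, which was read at no more than 2.85 CPM in any library. Exons of Vcam1 share 61 bases with Gm43109 and those of Ncam1 417 bases with Gm11149, both on the opposite strand, and those of L1cam share 100 bases with Arhgap4 on the same strand.

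The change around Icam1 was seen against its neighbours on chromosome 9. Between 100 kb before Icam1 and 100 kb after Icam5, 11 annotated genes were tested, and Icam1 was the 1 that rose in edgeR, against 14.3% of all genes. The other 10, in order Dnmt1, S1pr2, Mrpl4, Icam5, Gm26592, Zglp1, Fdx1l, Raver1, Tyk2 and Cdc37, had log2 fold changes between -0.26 and 0.27, the lowest adjusted p being 0.134. Icam4, an adhesion gene of red blood cells that lies between Icam1 and Icam5, was at 0 counts in all 12 libraries. None of the 11 fell in edgeR, with 1 at an unadjusted p below 0.05. Without Control 4, Dnmt1, the maintenance DNA methyltransferase gene, fell by 0.27 (adjusted p = 0.0477). On totals free of risen genes, 3 of the 11 rose.

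**Figure D2:**
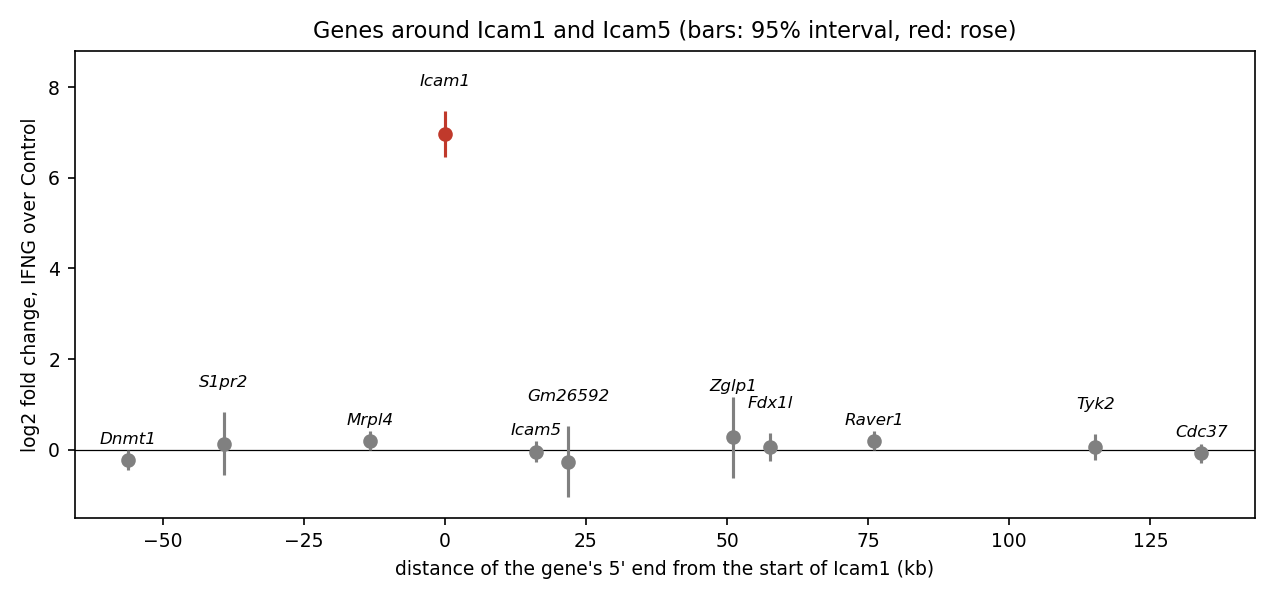
Log2 fold change (IFNG over Control, y axis) of the 11 tested genes around Icam1 and Icam5, placed by the distance of their 5' end from the start of Icam1 in kilobases (x axis), with bars for the 95% interval. Icam1 stands at 6.96 and the other 10 genes, Icam5 included, lie between -0.26 and 0.27.

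Each adhesion gene was also set against cell type markers of the same library, a ratio in which the scaling of libraries cancels. The ratio is the log2 CPM of the gene minus the mean log2 CPM of 10 astrocyte or 14 neuron markers, with a prior count of 2, and the 14 ratios were compared by exact two-sided permutation tests, whose smallest possible p is 0.00216, adjusted over the 14. The astrocyte marker mean itself was 8.37 ± 0.23 in IFNG and 7.20 ± 0.074 in Control libraries, and the neuron marker mean 7.93 ± 0.14 in IFNG and 8.21 ± 0.066 in Control libraries (SD of log2 CPM, n = 6 each). Against astrocyte markers Icam1 stood at -1.87 ± 0.25 in IFNG and -7.63 ± 0.85 in Control libraries, a difference of 5.76. Vcam1 stood at 0.31 ± 0.18 in IFNG and -2.21 ± 0.16 in Control libraries, a difference of 2.52 (SD, n = 6 each; adjusted p = 0.00379 for both genes, exact permutation test). Icam1 and Vcam1 were thus higher than in Control in all 6 IFNG libraries also beside the risen astrocyte markers. The ratio of Alcam went the other way, since the rise of Alcam itself, at 0.41, was smaller than that of these markers. This ratio stood at -1.46 ± 0.40 in IFNG and -0.70 ± 0.25 in Control libraries (SD, n = 6 each). The difference was -0.76 (adjusted p = 0.0101, exact permutation test). Against the same markers Icam5, Ncam1 and L1cam were lower by -1.22, -1.32 and -1.30 in IFNG (adjusted p = 0.00379 each, exact permutation test). The astrocyte marker mean itself rose by 1.17, so a gene with no change of its own would stand lower by about that amount. These p-values therefore say nothing of a change in Icam5, Ncam1 and L1cam themselves.

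Set against neuron markers, Icam1, Vcam1 and Alcam were higher in IFNG libraries, and Icam5, Ncam1 and L1cam did not pass. The differences were 7.21 for Icam1, 3.97 for Vcam1 and 0.69 for Alcam (adjusted p = 0.00379 each, exact permutation test), with all 6 IFNG libraries above all Control libraries. The differences of 0.23 for Icam5, 0.13 for Ncam1 and 0.15 for L1cam gave adjusted p = 0.240 each in the exact permutation test. Without IFNG 3, Ncam1 and L1cam passed, at 0.20 and 0.23 (adjusted p = 0.0193 each, exact permutation test). The neuron marker mean itself changed by -0.28, so a gene with no change of its own would stand higher by about that amount. The ratios of Icam2, at -0.36 against astrocyte and 1.09 against neuron markers (adjusted p = 0.50 and 0.0879, exact permutation test), rest on its few counts. The part of a change in cell types in these results was not tested, since the ratios cannot tell more cells from more RNA per cell.

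**Figure D3:**
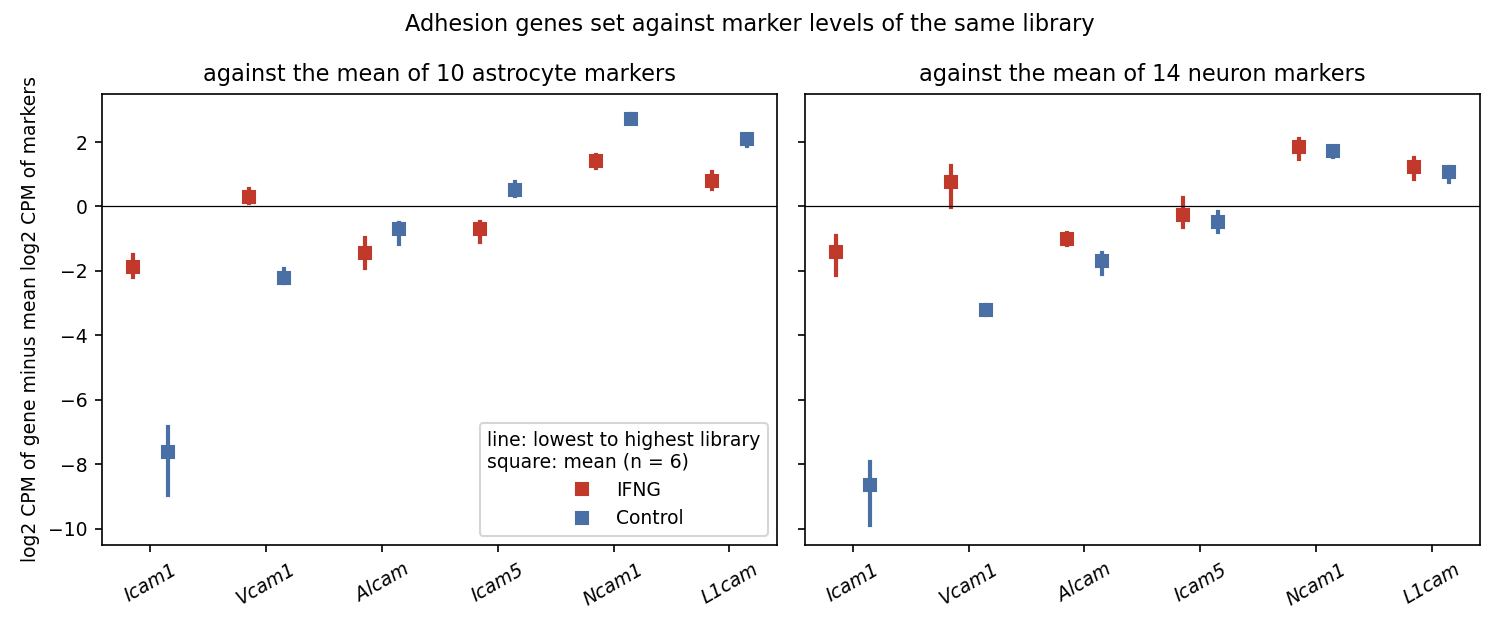
Log2 CPM of each adhesion gene minus the mean log2 CPM of 10 astrocyte markers (left) or 14 neuron markers (right) of the same library, for IFNG and Control libraries, with squares for the mean and lines from the lowest to the highest of 6 libraries (Icam2 not drawn). Icam1 and Vcam1 are higher in IFNG in both panels, while Alcam is lower in IFNG against astrocyte markers and higher against neuron markers.

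Whether the adhesion genes varied with the amount of Ifng was asked among the 6 IFNG libraries. IFNG 3 had the least Ifng, at 4.98 CPM, and also the least Icam1 and Vcam1, at 64.5 and 277.7 CPM. The mean of the astrocyte markers was also lowest in IFNG 3 among the IFNG libraries, at 8.02 log2 CPM. It was highest in IFNG 6, at 8.66, which had the most Vcam1 but not the most Icam1. Relations to these markers within the group were not tested. IFNG 5 had the most Ifng, at 17.8 CPM, and the second highest values of Icam1 and Vcam1, at 105.9 and 518 CPM. Over log2 CPM, Pearson's r with Ifng was 0.75 for Icam1 (exact permutation p = 0.0861, adjusted over 7 genes 0.301), with Spearman's rho 0.77 (exact permutation p = 0.103, adjusted 0.408). For Vcam1 r was 0.87 (exact permutation p = 0.0194, adjusted 0.136) and rho 0.66 (exact permutation p = 0.175, adjusted 0.408). The other 5 had r between -0.63 for Alcam and 0.61 for Icam5, with adjusted p of at least 0.338. No relation passed the adjustment. Without the 2 libraries farthest from the median Ifng level, r was 0.265 for Icam1 and 0.69 for Vcam1 over the 4 left, and that of Icam5 was 0.083, so the values for Icam1 and Icam5 rested on those 2 libraries.

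Lists of other genes were read for the machinery around these molecules. Among 21 genes of vascular and leukocyte adhesion, 11 were tested, 4 rose and none fell in edgeR or at an unadjusted p below 0.05, beside the 14.3% of all tested genes that rose. The median log2 fold change was 0.12, beside -0.016 over all genes. Cd44, the hyaluronan receptor, averaged 67.8 ± 6.76 CPM in IFNG cultures, against 20.4 ± 6.61 CPM in Control cultures, and the junctional adhesion molecule gene Jam3 averaged 82.3 ± 23.2 CPM in IFNG cultures, against 28.6 ± 4.43 CPM in Control cultures (SD, n = 6 each). Their log2 fold changes were 1.74 ± 0.19 for Cd44 and 1.52 ± 0.16 for Jam3, and Jam2 and Mcam also rose, by 1.01 ± 0.15 and 1.06 ± 0.26 (SE). Bsg, the abundant basigin gene, stood at 0.18 ± 0.092 (SE; adjusted p = 0.179, edgeR) and passed on totals free of risen genes (0.29, adjusted p = 0.0312). Among the genes left untested for low counts were the selectin genes Sele and Selp and Madcam1, the mucosal relative of Vcam1. Madcam1 held 145 counts over the IFNG libraries, at 0.339 to 2.13 CPM, against 1 count over the Control libraries, so its groups did not overlap. The rises in this list stood beside the rise of all 10 tested astrocyte markers.

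No tested gene of the counter-receptors, which on leukocytes bind these ligands, was called in the main fit. Of 13 integrin chains and Cd6, 8 were tested and none rose or fell in edgeR, beside the 24.1% called among all tested genes. With 8 genes tested, an absence of calls says little about the list. At an unadjusted p below 0.05, 1 gene was lower, and it also passed in DESeq2, in limma-voom and with the replicate block. That gene was Itga4, the alpha 4 chain that binds VCAM1, at 3.02 ± 1.62 CPM in IFNG cultures, against 5.45 ± 1.06 CPM in Control cultures (SD, n = 6 each; log2 fold change -0.87 ± 0.33, SE; adjusted p = 0.0650, edgeR). Without IFNG 3 it passed, at -1.07 (adjusted p = 0.0253). Itgb2, the beta chain of LFA-1, was too low to be tested. Itgb1, which pairs with Itga4, was abundant at 141.9 ± 13.3 CPM in IFNG cultures, against 135 ± 13.0 CPM in Control cultures (SD, n = 6 each), with a log2 fold change of 0.07 ± 0.090 (SE; adjusted p = 0.633, edgeR).

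Of 18 cytoplasmic partners all were tested, 8 rose and none fell in edgeR or at an unadjusted p below 0.05, beside the 14.3% of all tested genes that rose, and the median log2 fold change was 0.11. The 10 astrocyte markers tested rose in the same libraries, and their part in this count was not tested. Ezr and Msn, whose proteins tie the tails of ICAMs to actin, rose by 1.49 ± 0.16 and 1.44 ± 0.14, and their relative Rdx by 0.26 ± 0.084 (SE). Rdx did not pass without IFNG 1, IFNG 4, Control 2, Control 5 or Control 6 (adjusted p = 0.0510 to 0.0750). Nor did Rdx pass on library totals or with no filter on low counts (adjusted p = 0.0737 and 0.0525, edgeR). Arhgef26, an exchange factor for the GTPase of Rhog, rose by 1.07 ± 0.16, and Rhog itself by 1.15 ± 0.25 (SE). Vcl, which links adhesion sites to actin, and Rhoa, a GTPase of the cytoskeleton, were also among the 8. Rhoa did not pass without IFNG 4 or Control 1 (adjusted p = 0.0563 and 0.0564), or on library totals (adjusted p = 0.0548, edgeR). On library totals, and in the test against a fold change of 1.2, 6 of the 18 rose. Sptan1, the spectrin gene of the neuronal membrane skeleton, stood at -0.16 ± 0.083 (SE; adjusted p = 0.186, edgeR), and the ankyrin genes Ank2 and Ank3, partners of L1CAM, at -0.09 ± 0.14 and -0.33 ± 0.17 (SE). Of 14 proteases that shed adhesion molecules and their inhibitors, 12 were tested, 3 rose and none fell in edgeR, beside 14.3% of all tested genes that rose and 24.1% that were called, and 1 was lower at an unadjusted p below 0.05. A count of 3 is near those shares. The membrane protease gene Mmp14 rose by 1.70 ± 0.13 and the inhibitor gene Timp3 by 0.81 ± 0.13 (SE). Timp2 rose by 0.25 ± 0.088 (SE; adjusted p = 0.0430, edgeR), but did not pass without any of IFNG 1, IFNG 2, IFNG 4, IFNG 6, Control 2, Control 4, Control 5 or Control 6 (adjusted p = 0.0524 to 0.0907). Bace1, a protease that cleaves L1-type molecules, stood at -0.01 ± 0.087 (SE; adjusted p = 0.963, edgeR).

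Among other neuronal adhesion molecules of the immunoglobulin type, the share called lay near that of all genes. Of 28 genes tested, 6 fell and 2 rose, beside the 9.79% of all tested genes that fell and the 14.3% that rose, or 24.1% called. Their median log2 fold change was -0.11, and that of the 14 neuron markers, of which 7 fell, was -0.29 in the same libraries. With totals free of risen genes 3 fell and 3 rose with a median of 0.01, and on totals with no composition factor 7 fell and none rose. The contactin genes Cntn3 and Cntn5 fell by 0.98 and 0.65, and Cadm3, a synaptic adhesion gene, fell by 0.59 on the log2 scale (adjusted p = 1.86e-05, 0.000856 and 3.59e-05, edgeR). Cadm3 averaged 549 ± 44.7 CPM in IFNG cultures, against 827 ± 79.4 CPM in Control cultures (SD, n = 6 each), and its groups did not overlap. Chl1, the close relative of L1cam, stood at -0.18 ± 0.12 (SE; adjusted p = 0.313, edgeR), and at -0.071 without IFNG 5. The 2 that rose, Cntn2 and Nectin3, did so by 0.32 and 0.34. Cntn2 did not pass without IFNG 1, IFNG 2, IFNG 6 or Control 1 (adjusted p = 0.0587 to 0.0725), nor Nectin3 without IFNG 2, Control 5 or Control 6 (adjusted p = 0.0502 to 0.0564).

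None of the 3 sialyltransferase genes listed here for polysialic acid, St8sia2, St8sia3 and St8sia4, passed in edgeR, beside the 24.1% called among all tested genes. With 3 genes, an absence of calls says little about the list. At an unadjusted p below 0.05, 1 was higher and 1 lower. St8sia2 stood at 0.28 ± 0.10 (SE; adjusted p = 0.0545) and passed in DESeq2 (adjusted p = 0.0458) and without IFNG 3, IFNG 5, Control 1 or Control 5 (adjusted p = 0.0139 to 0.0421, edgeR). St8sia3 stood at -0.27 ± 0.11 (SE; adjusted p = 0.0952) and passed without IFNG 3 (adjusted p = 0.0398).

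Of 12 known regulators of Icam1 and Vcam1, 10 were tested, 8 rose and none fell in edgeR or at an unadjusted p below 0.05, beside the 14.3% of all tested genes that rose, and the median log2 fold change was 0.80. Irf1, a transcription factor of the interferon-gamma response, rose by 5.96 ± 0.12, and the tumour necrosis factor receptor gene Tnfrsf1a by 1.53 ± 0.13 (SE). The NF-kB subunit gene Nfkb1 and the inhibitor gene Nfkbia rose by 0.58 ± 0.15 and 0.57 ± 0.14 (SE). Rela, the other subunit of the classical NF-kB pair, stood at 0.34 ± 0.14 (SE; adjusted p = 0.0755, edgeR), and passed without IFNG 4 or Control 4 (adjusted p = 0.0207 and 0.0240) and on totals free of risen genes (adjusted p = 0.0195). The cytokine genes Tnf and Il1b were too low to be tested.

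**Figure D4:**
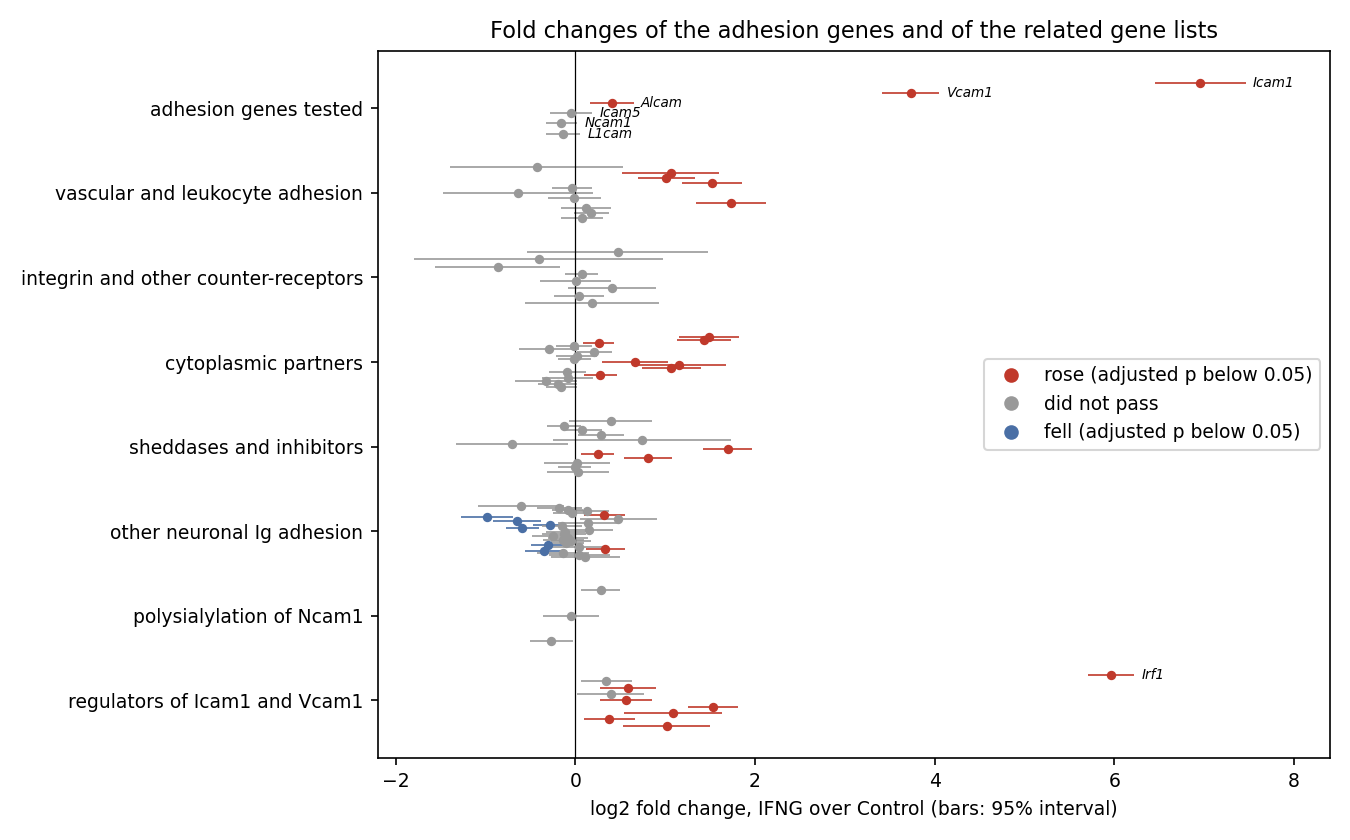
Log2 fold change (IFNG over Control, x axis) of the 6 tested adhesion genes and of tested genes of 7 other lists (rows), with bars for the 95% interval and colour for the call at an adjusted p of 0.05. Icam1 and Vcam1 stand with Irf1 far to the right, and no gene of the integrin and polysialylation rows is coloured.

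The genes whose log2 CPM over the 12 libraries was most like that of Icam1 were Trim30a, Parp14 and Ly6a, with Pearson's r between 0.99411 and 0.99432. For Vcam1 they were Sp100, Gm6548 and Trim5, with r between 0.99808 and 0.99938. All 6 rose, and the 12 points share the split between the groups. For Icam5 they were Ano8, Stub1 and Csnk1g2, with r between 0.937 and 0.948, and none of these 3 passed (adjusted p of at least 0.598, edgeR).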

How the data were processed

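The authors deposited raw counts per gene, whole numbers with no normalization. Libraries were made by poly(A) enrichment, per the labels' protocols. STAR 2.4 and DESeq2, and the builds GRCm39 and mm10, are named with no role per the submitters' processing notes. Neither the read counter nor its strand setting and annotation is stated in these sources. Symbols, coordinates and exon lengths came from GENCODE M21 (GRCm38), which matched 42548 of 43629 identifiers, and promoter sequences from RefSeq (GRCm38.p6).

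The fit was IFNG against Control over all genes with edgeR 4.0.16 under R 4.3.3, using TMM factors, filterByExpr, quasi-likelihood F-tests, no block and Benjamini-Hochberg adjustment at 0.05. The SE was taken from the log2 fold change and its F statistic. Permutation tests were exact, and the code for the fit was tested on simulated data. The interval of Icam2 is exact at 95% and covers counting error only.

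Alternatives were DESeq2 size factors, library totals, totals free of risen genes, no filter, a filter of 1 CPM in 6 samples, the replicate block, each library left out, DESeq2 1.42.0, limma-voom 3.58.1, a test against a fold change of 1.2, and prior counts of 0.5 and 5. No 2 libraries of a group agreed within sampling noise (chi-square of at least 7.40 per gene).

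Named genes were all adhesion genes. From each other list came up to 3 called genes of lowest p and the most abundant gene not called. Also named were tested genes within 100 kb of Icam1 and Icam5, and the 3 genes most like Icam1, Vcam1 and Icam5. Some genes of the lists are counted but not reported or drawn here. Further names were chosen after their values were seen. The adhesion genes and all lists were chosen with earlier results of these data known. The lists of microglial, endothelial, fibroblast and mural, lymphocyte and oligodendrocyte lineage markers had 2 of 2, 1 of 2, 2 of 6, 0 of 1 and 1 of 9 tested genes higher, and in the last list 2 lower.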

Additional observations from a re-analysis of the deposited data

Results flagged for a closer look

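Icam2 in IFNG 5 stood apart from the other IFNG libraries, at 0.729 CPM against 0 to 0.196 CPM. Icam2 in Control 4 stood apart in the same way, at 0.113 CPM against 0 CPM in the other Control libraries, which is a difference of 2 counts. By Dixon's criterion 2 of 20 groups of values checked held such a library, where chance gives about 1 in 20 for normally distributed values. Both groups were those of Icam2, with most libraries at 0 counts or a few, so that rate does not apply to them.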

How the results depend on the processing

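Icam1 and Vcam1 kept their direction and call under all 21 alternatives, at 6.81 to 7.13 and 3.65 to 3.85 on the log2 scale. Alcam lay between 0.35 and 0.52 and lost its call in the test against a fold change of 1.2 (0.41, adjusted p = 0.195). Icam5 turned to 0.066 on totals free of risen genes, and ranged from -0.11 to 0.039 with 1 library left out. Ncam1 and L1cam never passed as log2 fold changes (adjusted p of at least 0.0855 and 0.160). Genes lower in IFNG numbered 750 on totals free of risen genes and 458 in the test against a fold change of 1.2, beside 1492. In the fold change test 1493 genes were higher. The ratio of Icam2 counts ran from 3.75 to 14.3 with 1 library left out, and had no value without Control 4. Icam2 against astrocyte markers was 0.23 with a prior count of 0.5, and against neuron markers it was 1.69 with a prior count of 0.5, and 0.77 with a prior count of 5, where it passed (adjusted p = 0.0242). IFNG 1, IFNG 2 and IFNG 4 held 0 Icam2 counts, so their Icam2 ratios are set by the prior count and the markers. With 1 library left out Icam2 ranged from -0.74 to -0.15 against astrocyte markers. Against neuron markers it ranged from 0.65 to 1.30, and passed without IFNG 1 or IFNG 4 (adjusted p = 0.0394 each, exact permutation test). In the same way the differences against neuron markers ranged from 0.13 (without IFNG 5) to 0.31 for Icam5, which never passed, from 0.078 to 0.20 for Ncam1 and from 0.086 to 0.23 for L1cam. The r of L1cam with Ifng was -0.11 on library totals and -0.53 without 2 libraries. Bace1 turned to 0.10 on totals free of risen genes, 0.015 with no filter and 0.0033 with a filter of 1 CPM, and ranged from -0.031 to 0.046 with 1 library left out. The cause of these turns was not tested. The labels do not say whether equal replicate numbers pair the libraries. Same-numbered libraries correlated at -0.00096 to 0.124 in their deviations, and 2 of 6 IFNG libraries correlated best with their own number. So few libraries cannot settle whether a pairing exists. With the replicate block 2114 genes were higher and 1563 lower, and Icam1, Vcam1 and Alcam stood at 6.99, 3.70 and 0.41. Under the block Itga4 and St8sia3 passed, at -1.02 and -0.28 (adjusted p = 0.0295 and 0.0280, edgeR). Depth limits what can be said of Icam2, Sele, Selp and most integrins of leukocytes.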
